A study of Mus musculus with 20 samples.

Results

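ATAC-seq, which maps open chromatin by where a transposase can insert into DNA, was compared between mTOR-knockout hematopoietic stem cells (HSC) and mTOR-knockout HSC that had in addition lost 1 allele of c-Myc. The comparison took 4 of the 20 samples of the series, 2 libraries per genotype, chosen by the genotype in their labels. The KO libraries (KO 1 and KO 2) had the genotype Mx1-Cre+/-;mTORflox/flox, and the KO MycHet libraries (KO MycHet 1 and KO MycHet 2) carried c-Myc+/flox on top of both. All 4 came from adult mice given poly(I:C), which induces the Mx1 promoter that drives Cre, and each was made from 50000 sorted HSC. The deletion of Mtor and the poly(I:C) treatment are thus common to both genotypes. Mx1-Cre also acts outside HSC, so the cells around the HSC in the mouse may be deleted as well. No c-Myc+/flox mouse with intact Mtor is among these samples. The labels do not say whether the 2 libraries of a genotype came from separate mice, so the spread between them may be technical.

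MYC is a transcription factor that binds E-box DNA together with its partner MAX and raises the output of genes for ribosome assembly, nucleotide synthesis and cell division. In the bone marrow the amount of MYC influences whether HSC stay in the niche and self-renew or leave it and differentiate. mTOR is a kinase that couples nutrients and growth factors to protein synthesis, and translation of MYC is among the processes it influences. Open chromatin marks promoters and enhancers that transcription factors can reach, but it does not say how strongly a gene is transcribed.

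Each library was deposited as a list of peaks with a score, and the lists differed in length. On chromosomes 1 to 19 and X, KO 1 held 19174 peaks and KO 2 held 72149. KO MycHet 1 held 47214 and KO MycHet 2 held 53722. The scale of the scores is not stated, so scores served to rank peaks within a list and not to compare levels between lists. No read counts come with the lists, so the sequencing depth is unknown, and a longer list cannot be told apart from a more open genome. The 19174 highest-scoring peaks of each library were therefore compared, which is the whole list of KO 1. The lowest score kept was 50.0 in KO 1, 284.34 in KO 2, 165.72 in KO MycHet 1 and 193.85 in KO MycHet 2. The kept peaks had a median width of 514 bp in KO 1, 1049 bp in KO 2, 1455 bp in KO MycHet 1 and 1153 bp in KO MycHet 2. KO 1 thus stood apart from the other 3 libraries in the number, score and width of its peaks. Its protocol names wild-type (WT) and KO mice only, whereas the protocol of the other 3 libraries names all 3 genotypes, so the comparisons over regions and gene lists are also given without KO 1 or against KO 2 alone. The WT lists showed a similar split, with 17303 peaks in WT 1 and 66531 in WT 2.

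Peaks at the 2 targeted genes were read first. Mtor (gene ID 56717, chromosome 4, 148448582 to 148557685 in mm10) encodes the deleted kinase. No KO or KO MycHet library had a peak at its lower end, where WT 1 and WT 2 had peaks scoring 341.21 and 1418.45. At its upper end KO 2 had a peak scoring 183.02, KO MycHet 1 one of 167.75 and KO MycHet 2 one of 258.78, and KO 1 had none. Myc (gene ID 17869, chromosome 15, 61985341 to 61990361) was open in all 4 libraries. Its peak scored 103.85 in KO 1, 456.71 in KO 2, 276.45 in KO MycHet 1 and 529.61 in KO MycHet 2, which are percentiles 60.9, 84.2, 74.6 and 88.4 of the respective full lists. The genotypes therefore overlapped at Myc, and the peaks do not show which allele was read. The MYC ChIP-seq library of KO HSC had no peak at either end of Myc.

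HSC genes were open in both genotypes. Hlf, a transcription factor of the HSC state, Kit, the stem cell factor receptor, Meis1, a HOX cofactor, and Mecom, a regulator of HSC self-renewal, had a peak in all 4 full lists. Of 40 genes of HSC identity, 18 had a peak at an end in the full list of KO 1, 37 in KO 2, 34 in KO MycHet 1 and 34 in KO MycHet 2. Of 22 B cell markers the same count was 2, 11, 7 and 8, of 28 T and NK markers 4, 15, 14 and 15, and of 28 myeloid markers 4, 24, 18 and 17. Of 24 erythroid markers it was 10, 16, 17 and 18, of 20 megakaryocyte markers 6, 15, 14 and 13, and of 20 stromal and endothelial markers 3, 8, 11 and 10. These counts move with the length of the list. Over all 21631 protein-coding genes they were 9659 in KO 1, 14218 in KO 2, 13412 in KO MycHet 1 and 13478 in KO MycHet 2. The share of HSC identity genes was thus near that of all genes in KO 1 and above it in the other libraries. In KO 2 and both KO MycHet libraries the shares of erythroid and megakaryocyte markers were above it too. The share of myeloid markers was above it in KO 2 and slightly so in KO MycHet 1. A share above that of all genes was thus not particular to HSC identity genes. No peak lay at an end of Pax5, Cd3e, Gata1, Alas2, Ly6g or Cdh5 in any of the 4 libraries. Other members of their lists had a peak of all 4 full lists at an end. These were at least 9 erythroid, 4 myeloid, 2 B cell, 3 T and NK and 3 stromal and endothelial markers. The genes without a peak thus do not stand for their lists. Among the surface markers of HSC, Procr had a peak in KO 2 and both KO MycHet libraries and Slamf1 in KO 2 alone. The part of other cell types in the differences below was not tested.

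To ask which regions were open in 1 genotype, the kept peaks of the 4 libraries were merged where they shared at least 1 bp, giving 26379 regions. Of these, 12564 (47.6%) held a peak of all 4 libraries, and 491 (1.86%) held a peak of both KO and neither KO MycHet library. The reverse case, both KO MycHet and neither KO library, held 805 regions (3.05%). By comparison 3650 regions belonged to KO 1 alone, and 3281 were shared by the other 3 libraries and missed by KO 1. The 4 combinations of exactly 1 KO with 1 KO MycHet library held from 233 to 534 regions. Most of the differences between libraries thus did not follow genotype. In the equal lists 74.3% of the peaks of KO 1 overlapped KO 2 and 71.8% in the other direction. For the KO MycHet pair these shares were 89.7% and 89.9%. Between KO 2 and the KO MycHet libraries they ranged from 86.5% to 87.6%, so KO 2 shared more peaks with either KO MycHet library than with KO 1.

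**Figure D1:**
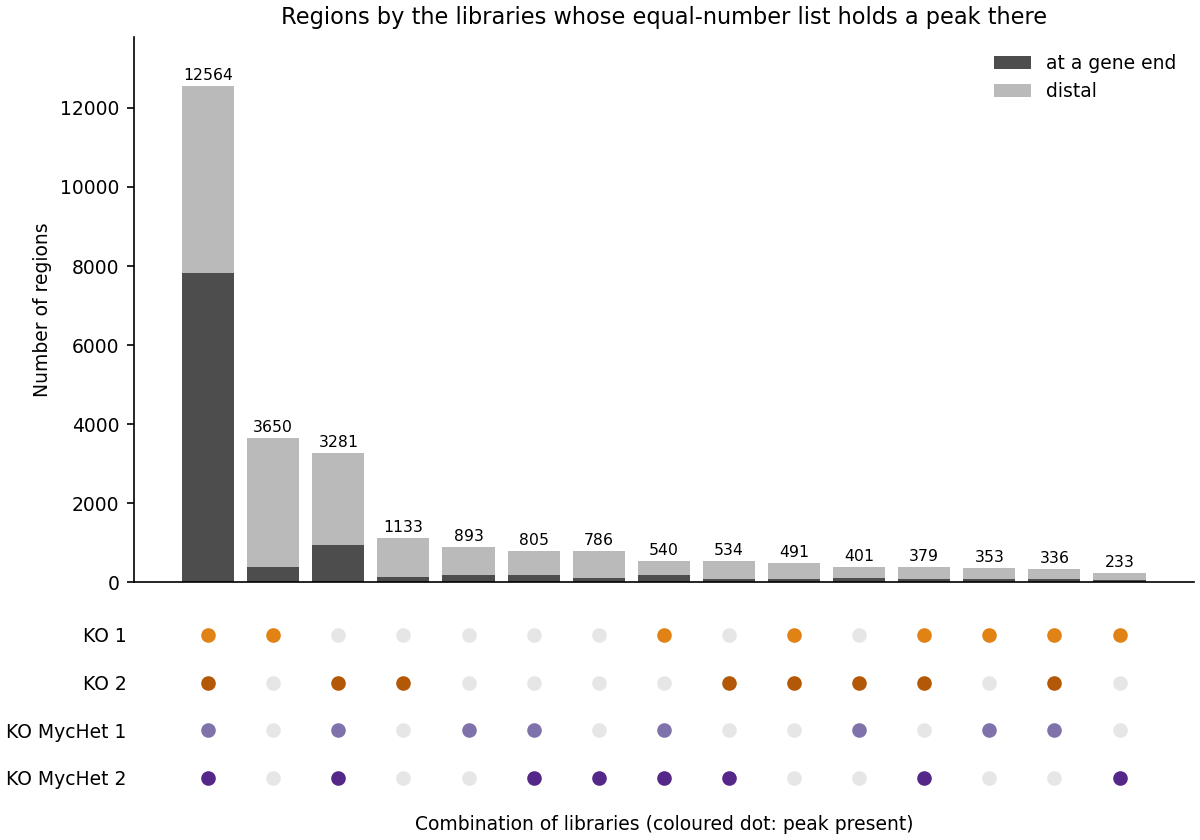
Number of merged regions (vertical axis, linear) for each combination of libraries whose equal-number list holds a peak there, split into regions within 1 kb of the end of a protein-coding gene (dark) and distal regions (light), with coloured dots naming the libraries. The bar of 12564 regions shared by all 4 libraries is the tallest, and the bars of KO 1 alone (3650) and of all but KO 1 (3281) exceed those of both KO only (491) and both KO MycHet only (805).

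Nearly all of the regions open in 1 genotype held a peak in at least 1 full list of the other genotype, under the score limit of its equal list. Of the 491 regions of both KO libraries, 477 lay in the full lists of both KO MycHet libraries and 6 in neither. All 805 regions of both KO MycHet libraries lay in the full list of KO 2, and none could lie in that of KO 1, whose whole list was already in use. The regions came from the weaker part of each list. Their median percentile, with 0 for the lowest and 100 for the highest score kept, was 29.9 in KO 1 and 13.7 in KO 2 for the KO-only regions. For the KO MycHet-only regions it was 17.6 and 16.3 in the 2 KO MycHet libraries, against 66.1 or 66.2 for regions shared by all 4. In KO 1 the KO-only regions therefore lay higher than in KO 2.

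The 6 regions without any KO MycHet peak were named after their values were seen. A region inside Sfi1, a centriole gene (chromosome 11, 3192034 to 3194917), scored 228.73 in KO 1 and 476.83 in KO 2. A region 17.7 kb from Mid1, a microtubule-associated ubiquitin ligase gene (X, 170008467 to 170010476), scored 262.37 and 527.41. Regions of chromosome 9 from 3023172 to 3026083 and from 3034218 to 3036525, with no coding gene nearer than 299 kb, scored 386.78 and 366.8 for the former and 167.96 and 317.8 for the latter. A region 5.32 kb from Tlr4, a receptor for bacterial lipopolysaccharide (chromosome 4, 66851903 to 66852446), scored 92.39 and 306.47, and one inside Oscp1 (chromosome 4, 126065088 to 126065613) 62.88 and 302.31. The regions in Sfi1, near Mid1 and on chromosome 9 were from 2010 to 2912 bp wide, against a median of 678 bp over the KO-only regions. Both chromosome 9 regions also held a KO MYC and a KO H3K27ac peak. Whether these regions hold repeated sequence was not examined, so their peaks are uncertain.

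Regions open in 1 genotype only lay mostly away from gene ends, some of them inside genes. A region was placed at a gene end when it reached within 1 kb of either annotated end of a protein-coding gene, and called distal otherwise. By this measure 75 of the 491 KO-only regions (15.3%) and 183 of the 805 KO MycHet-only regions (22.7%) lay at gene ends, against 62.2% of the regions shared by all 4 and 39.9% of all regions. KO H3K27ac, a mark of active promoters and enhancers, overlapped 28.7% of the KO-only and 29.8% of the KO MycHet-only regions, and 68.6% of those shared by all. KO H3K4me3, a promoter mark, overlapped 14.7%, 31.3% and 74.0%. The KO MycHet-only regions were wider, with a median of 1194 bp against 678 bp. The full list of WT 2 held 99.0% of the KO-only and 95.4% of the KO MycHet-only regions, near its 96.8% of all regions, and that of WT 1 held 46.2% and 18.8%, with 56.2% of all. Without KO 1, the regions of KO 2 with neither KO MycHet library lay at gene ends in 13.1% and those of both KO MycHet libraries and not KO 2 in 28.0%, with 44.6% of all regions. They overlapped KO H3K27ac in 24.5% and 34.3% and KO H3K4me3 in 10.8% and 39.6%. WT 1 then held 27.9% and 30.3%, so the wide difference in WT 1 shares was not seen without KO 1.

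Among distal regions of both KO libraries only, those highest in both lists included 1 near Tufm, a mitochondrial translation factor gene (chromosome 7, 126482407 to 126483108, scores 88.7 and 549.43), and 1 inside Lmo7 (chromosome 14, 101882935 to 101883414, 104.15 and 500.76). Another lay 27.8 kb from Tbc1d19 (chromosome 5, 53937024 to 53937706), with scores of 92.15 and 516.26. Of the 8 KO-only distal regions named by the rule, 1 (the Lmo7 region) held a KO MYC peak. In the reverse direction the region inside Tatdn3 (chromosome 1, 191054735 to 191056063) scored 375.13 in KO MycHet 1 and 448.81 in KO MycHet 2. The region inside Cdyl, a chromodomain gene (chromosome 13, 35677375 to 35678488), scored 337.15 and 408.09, and that 79.7 kb from Tbl1xr1, a corepressor subunit gene (chromosome 3, 21995342 to 21996596), 329.63 and 379.86. Of the 8 named KO MycHet-only distal regions, 7 held a KO MYC peak. Over the whole distal classes the shares were 25.4% of 622 KO MycHet-only and 7.45% of 416 KO-only regions. The named regions were taken from the highest scores and do not stand for their class.

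MYC binding was then set against these regions, using the single MYC ChIP-seq library of KO HSC with 22086 peaks. KO MYC peaks lay in 39 of 491 KO-only regions (7.94%, exact Clopper-Pearson 95% confidence interval 5.71 to 10.7). They lay in 190 of 805 KO MycHet-only regions (23.6%, 20.7 to 26.7), in 41.7% of the regions shared by all 4 and in 27.8% of all regions. Of these classes the KO-only regions had the lowest share, their interval did not reach that of the KO MycHet-only regions, and both shares were below that of the shared regions. Regions of a single KO library had lower shares than those of a single KO MycHet library. These were 6.88% for KO 2 alone, 9.10% for KO 1, 15.7% for KO MycHet 1 and 12.2% for KO MycHet 2. Combinations that do not follow genotype spanned a range similar to that between the KO-only and KO MycHet-only regions. Regions of 1 KO with 1 KO MycHet library had from 8.48% to 22.4%, and those of all but KO 1 had 23.1%. At distal regions the shares were 7.45% (5.12 to 10.4) of 416 KO-only and 25.4% (22.0 to 29.0) of 622 KO MycHet-only regions, with 22.2% of all distal regions. At gene ends they were 10.7% (4.72 to 19.9) of 75 and 17.5% (12.3 to 23.8) of 183, with 36.1% of all regions there, and the intervals overlap. The intervals cover counting error only, and regions of 1 library pair are not independent samples. With a window of 500 bp at the middle of each region in place of its width, the shares over all locations were 7.94% and 21.6%.

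**Figure D2:**
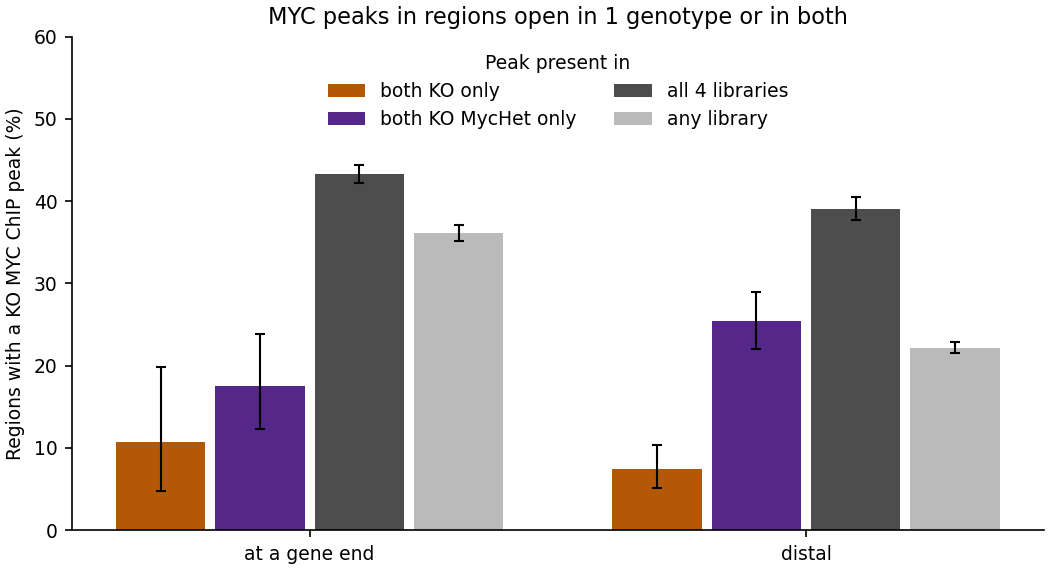
Share of regions with a KO MYC ChIP-seq peak (vertical axis, percent), at gene ends and distally, for regions with a peak in both KO libraries only, both KO MycHet libraries only, all 4 libraries and any library. Bars are the share over regions and whiskers exact 95% Clopper-Pearson intervals, and the distal bars of the first 2 classes stand at 7.45% and 25.4%.

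The separation of the 2 shares was not seen in the full lists. There they were 5.07% (2.80 to 8.36) and 6.98% (5.51 to 8.70), so the intervals overlapped. Leaving out KO 1 at 19174 peaks, KO MYC peaks lay in 7.20% (5.99 to 8.57) of 1624 regions of KO 2 with neither KO MycHet library and in 24.9% (22.6 to 27.3) of 1345 regions of both KO MycHet libraries and not KO 2, against 37.8% of those shared by all 3. Without KO MycHet 2 the shares were 13.7% and 19.4%. When KO 1 was left out and the number of peaks was also raised, the shares were lower in the same order. The 3 remaining libraries then allowed 47214 peaks each and gave 59219 regions, of which 4934 held a peak of KO 2 alone and 3765 a peak of both KO MycHet libraries and not of KO 2. KO MYC peaks lay in 2.13% (1.74 to 2.57) of the former and 8.07% (7.22 to 8.99) of the latter, against 22.2% of the 35503 regions shared by all 3. At distal sites the shares were 2.05% and 8.24%, and at gene ends 3.05% and 6.52%. In this setting 1 KO library stands against 2, and how the genotypes differ beyond these libraries was not tested.

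The composition of the lists was also compared library by library. KO MYC peaks overlapped 30.1% of the kept peaks of KO 1, 32.3% of KO 2, 34.5% of KO MycHet 1 and 33.8% of KO MycHet 2. Peaks at gene ends made up 46.3%, 48.0%, 50.1% and 48.8%, and peaks with KO H3K4me3 58.3%, 57.7%, 60.6% and 59.5%. Both KO MycHet libraries lay above both KO libraries in all 3 measures, by 3.0, 2.27 and 2.11 percentage points on average. The two-sided exact permutation test over the 4 libraries gave p = 0.33 for each, the smallest value it allows, and 0.42 after Benjamini-Hochberg adjustment over 10 measures. In the full lists the averages of all 3 measures ran the other way. They were 21.2% of KO and 16.9% of KO MycHet peaks at KO MYC peaks, 33.5% and 26.0% at gene ends, and 40.6% and 30.0% at KO H3K4me3 peaks. The full list of KO 1 was the shortest, and its shares were those of its equal list. The full list of KO 2 lay below both KO MycHet lists in all 3 measures. KO MYC peaks overlapped 12.2% of KO 2, 17.9% of KO MycHet 1 and 15.8% of KO MycHet 2. For gene ends these shares were 20.7%, 27.3% and 24.7%, and for KO H3K4me3 peaks 22.9%, 31.3% and 28.8%. Without KO 1, at 19174 peaks, the KO MycHet mean lay 1.89 points above KO 2 for KO MYC peaks and 1.43 for gene ends.

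At the level of genes, 11677 of 21631 protein-coding genes had an end within 1 kb of a kept peak in at least 1 library. Of these, 67 (0.574%) were open in both KO and neither KO MycHet library and 214 (1.83%) in the reverse case. Among the KO-only genes with the highest percentiles were Tmem273, Lmo1, Pira1, Pomc, Serpinb2, Ctnna2, Apob, Pde11a and Fkbp7. Some are known from other tissues, such as the hormone precursor Pomc and the lipoprotein Apob. Pira1 belongs to a family of near-identical receptor genes, so its peaks are uncertain. Peaks at Lmo1, a LIM-domain gene known as an oncogene of T cell leukemia, scored 88.94 in KO 1, 427.57 in KO 2, 113.59 in KO MycHet 1 and 188.87 in KO MycHet 2 in the full lists. The last 2 lay below the scores needed for the equal lists. None of the 67 genes lacked a peak in both full KO MycHet lists.

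Among listed genes, 1 of the 67 was in the interferon list. Ifitm3, a membrane protein that blocks viral entry, had scores of 69.72 in KO 1, 375.86 in KO 2, 141.15 in KO MycHet 1 and 76.63 in KO MycHet 2. The 214 KO MycHet-only genes included Gfi1, a repressor that restrains HSC proliferation, and Rrp12 and Pes1, which act in ribosome assembly. They also included the ribosomal protein genes Rpl6 and Rpl23a, the thymidylate synthase gene Tyms and the interferon genes Irf7 and Ifi35. Gfi1 had no peak in KO 1 and scored 257.93 in KO 2, 203.07 in KO MycHet 1 and 250.06 in KO MycHet 2, so the full list of KO 2 held it too. Rrp12 scored 272.55, 306.44 and 280.17 in the same 3 libraries, and Irf7, the main inducer of type I interferon, 149.18, 264.09 and 278.16. For each of these 3 genes KO 2 had a peak below its own limit of 284.34.

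The KO MycHet-only genes also held cases set by where a peak ends. Of the 214 genes, 27 had no peak at an end in either full KO list. Rbm48, an RNA-binding protein gene, Pcmtd1 and Bclaf1 led the class, with KO MycHet scores from 1025.93 to 1573.17. The peaks of all 4 libraries at these genes belonged to 1 merged region each, and the KO peaks stopped outside the 1 kb window. In the ranking described next, the region at Rbm48 stood at percentiles 90.7 in KO 1, 97.2 in KO 2, 97.7 in KO MycHet 1 and 98.1 in KO MycHet 2. That at Pcmtd1 stood at 99.6, 99.8, 96.6 and 99.6 in the same order. These genes were open in both genotypes, and the kept KO MycHet peaks were wider.

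To compare how strongly regions scored, each library's best score in the 17149 regions with a peak in all 4 full lists was ranked, giving a percentile from 0 (lowest) to 100 (highest). The KO MycHet libraries differed from each other by a median of 4.88 percentile points, and KO 2 differed from them by 6.51 and 5.85. KO 1 differed from KO 2 by 12.2 and from the KO MycHet libraries by 12.5 and 12.3. The difference between KO 2 and the KO MycHet libraries was thus only slightly above that within the KO MycHet pair, and below that within the KO pair. Spearman's rank correlation across regions, which share libraries and are no replicates, was 0.957 within KO MycHet, 0.923 and 0.937 between KO 2 and KO MycHet, and 0.736 within KO.

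**Figure D3:**
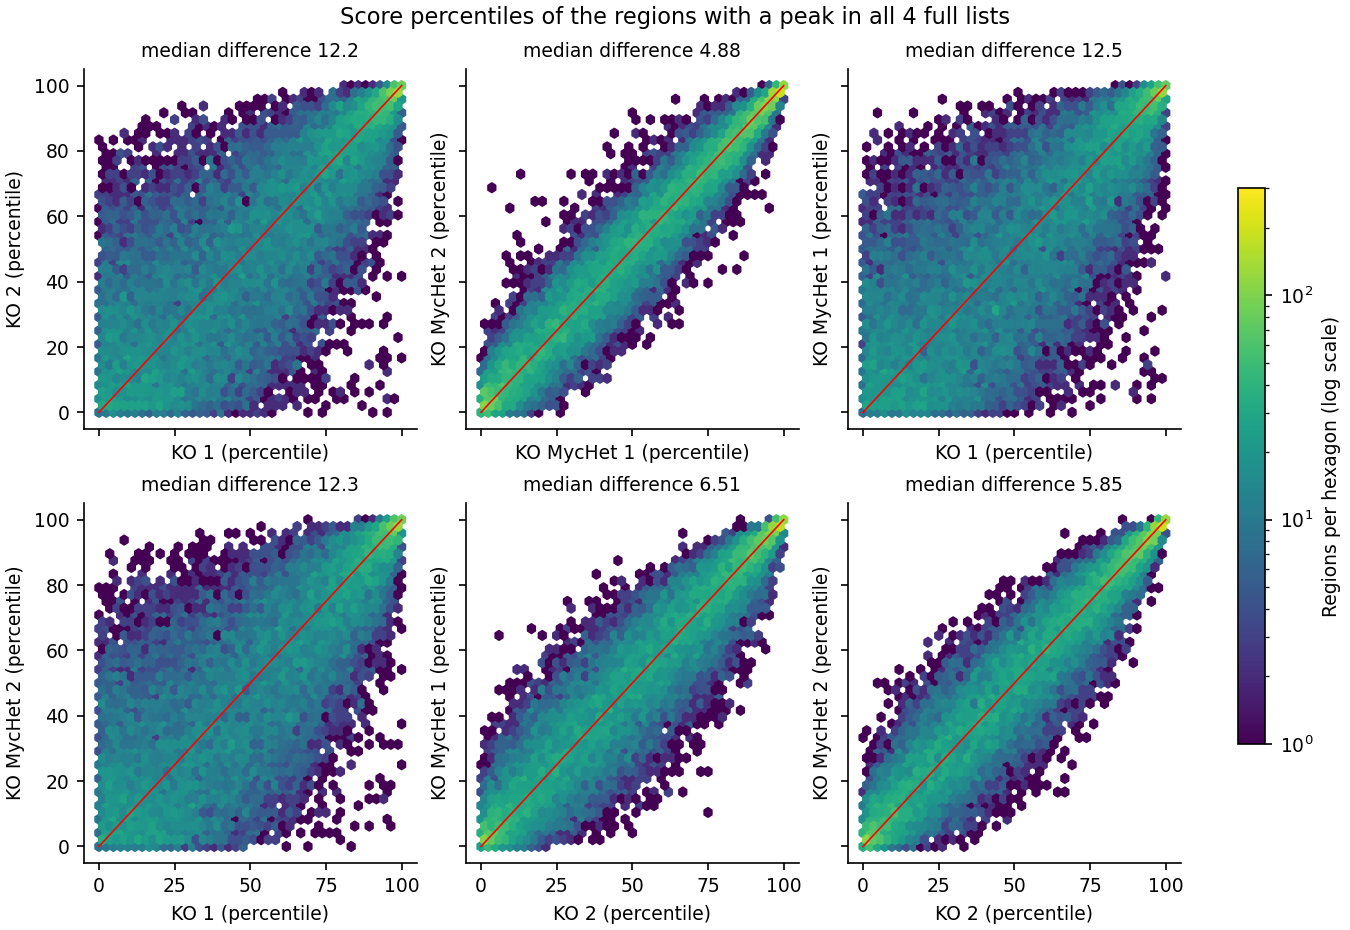
Percentile of each of the 17149 ranked regions in 1 library against another, for all 6 library pairs, with the number of regions per hexagon in colour on a log scale and the line of equality in red. The cloud is narrowest for the KO MycHet pair (median difference 4.88) and widest for the 3 pairs with KO 1 (12.2 to 12.5).

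No region passed the test between genotypes. In limma on normal scores of the ranks, 2 libraries against 2, 0 regions were higher and 0 lower in KO MycHet at a Benjamini-Hochberg adjusted p of 0.05, and the lowest adjusted p was 0.78. At an unadjusted limma p under 0.05 there were 325 regions higher and 466 lower. Both KO MycHet libraries lay above both KO libraries in 3339 regions (19.5%) and below both in 3382 (19.7%). Leaving out KO 2, so that KO 1 alone stood for the genotype, limma called 2609 regions higher and 2458 lower, a comparison of the single library KO 1 whose variation is assumed to be that of the KO MycHet pair. Leaving out any of the other 3 libraries gave no call in either direction.

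Gene ends lay more often above in KO MycHet and distal regions more often below, and the difference between them was not tested. At gene ends 2062 of 8734 regions (23.6%) had both KO MycHet libraries above both KO libraries and 1400 (16.0%) below. Of 8415 distal regions, 1277 (15.2%) lay above and 1982 (23.6%) below. The presence of a KO MYC peak went with a higher rank in KO MycHet in both places. Gene-end regions with a KO MYC peak lay above in 27.6% and below in 13.6% of 3522, and those without in 20.9% and 17.7% of 5212. Distal regions with a KO MYC peak lay above in 22.5% and below in 16.6% of 2391, and those without in 12.3% and 26.3% of 6024.

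The same order was seen in the medians. The median difference, KO MycHet mean minus KO mean in percentile points, was 1.66 at gene ends with and 0.45 without a KO MYC peak, and 1.12 at distal regions with and -3.78 without one. For KO H3K27ac peaks it was 1.55 with and -1.01 without at gene ends, and -0.29 and -3.83 distally. For KO H3K4me3 peaks it was 1.27 and -2.73 at gene ends, and 0.25 and -3.65 distally. The order was thus not particular to MYC peaks. Distal regions without a KO MYC peak had a median percentile of 30.8 in KO 1, 27.1 in KO 2, 25.0 in KO MycHet 1 and 24.9 in KO MycHet 2. Gene ends with one had 77.5, 78.3, 79.8 and 80.5. Both KO MycHet libraries lay beyond both KO libraries in each of these classes, but KO 2 also differed from KO 1 in the same direction. The median of KO 2 minus KO 1 was -3.44 at distal regions without and 1.12 with a KO MYC peak, about the size of the genotype difference. Without KO 1 the excess of regions with over those without a MYC peak was 0.13 points at gene ends and 1.86 points distally, against 1.21 and 4.9 with it. The exact permutation test over the 4 libraries gave p = 0.33 for the gene-end class with and the distal class without a MYC peak, the smallest value possible.

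The order of regions with and without a KO MYC peak was seen at each level of accessibility. Regions were split into 4 groups of equal size by their mean percentile over the 4 libraries, and in the lowest group 21.4% of those with a KO MYC peak and 12.6% of those without lay above in KO MycHet. In the following groups the pairs were 27.3% and 17.4%, 26.1% and 18.7%, and 25.3% and 18.5%. In 4 groups of equal size by KO MYC score, from lowest to highest, 24.1%, 22.5%, 26.4% and 29.2% of regions lay above and 17.0%, 16.0%, 13.7% and 12.7% below. Against KO 2 alone, and with the level taken over the other 3 libraries, 47.3% of regions with and 32.8% of those without a KO MYC peak lay above in the lowest level group and 40.9% and 34.2% in the highest. By KO MYC score the shares above KO 2 were 40.8%, 42.6%, 42.2% and 48.0%, and those below 33.7%, 32.5%, 29.4% and 27.9%. By place, both KO MycHet libraries lay above KO 2 in 45.5% and below in 28.1% of gene-end regions with a KO MYC peak. For distal regions without one these shares were 29.4% and 43.7%, with 37.3% and 36.2% over all regions.

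Of 9969 genes with a ranked region at an end, 2483 (24.9%) had both KO MycHet libraries above both KO libraries and 1535 (15.4%) below. The promoters of 4 genes with a wide gap and a KO MYC peak in the region are shown first, since they hold or lack the E-box that MYC-MAX prefers. They are the 250 bases before and 50 after an annotated start, from RefSeq on GRCm38.p6, read 5′ to 3′ on the gene's strand, with the E-box CACGTG and the ETS-type motif CCGGAAG or its reverse complement CTTCCGG in capitals. Ddx39b is at chr17:35241496-35241795 on the plus strand, Supt6 at chr11:78245654-78245953 on the minus strand, Arhgap17 at chr7:123369866-123370165 on the minus strand, and the second annotated start of Pim1 at chr17:29492835-29493134 on the plus strand.
Ddx39b: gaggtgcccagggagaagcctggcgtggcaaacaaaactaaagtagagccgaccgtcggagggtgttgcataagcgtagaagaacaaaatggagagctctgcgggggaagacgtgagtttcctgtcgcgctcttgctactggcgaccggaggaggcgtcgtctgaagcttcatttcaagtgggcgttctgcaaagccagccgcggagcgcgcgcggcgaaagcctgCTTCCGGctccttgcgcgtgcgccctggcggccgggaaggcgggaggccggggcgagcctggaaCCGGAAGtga
Supt6: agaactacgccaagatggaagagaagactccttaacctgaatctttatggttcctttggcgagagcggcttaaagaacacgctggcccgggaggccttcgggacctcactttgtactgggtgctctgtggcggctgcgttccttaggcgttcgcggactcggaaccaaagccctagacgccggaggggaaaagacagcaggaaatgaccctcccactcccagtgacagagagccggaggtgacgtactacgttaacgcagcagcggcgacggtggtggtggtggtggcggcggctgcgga
Arhgap17: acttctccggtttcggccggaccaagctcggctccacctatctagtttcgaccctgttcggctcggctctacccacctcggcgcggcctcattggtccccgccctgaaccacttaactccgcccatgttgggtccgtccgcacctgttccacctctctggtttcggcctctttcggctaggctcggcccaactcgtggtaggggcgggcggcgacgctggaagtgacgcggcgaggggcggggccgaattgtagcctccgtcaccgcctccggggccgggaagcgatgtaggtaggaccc
Pim1: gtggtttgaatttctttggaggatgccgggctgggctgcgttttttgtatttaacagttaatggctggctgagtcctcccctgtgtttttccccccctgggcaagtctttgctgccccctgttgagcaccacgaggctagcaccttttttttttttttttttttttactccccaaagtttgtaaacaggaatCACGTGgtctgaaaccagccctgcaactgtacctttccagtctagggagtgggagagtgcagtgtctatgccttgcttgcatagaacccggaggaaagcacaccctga

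The Ddx39b promoter held the ETS-type motif on both strands and no CACGTG, and those of Supt6 and Arhgap17 held neither motif in these 300 bases. The second start of Pim1 held 1 CACGTG. Its first annotated start (chr17:29490535-29490834), in the same ranked region and not printed, held neither motif. CACGTG reads the same on both strands and shares no match with CCGGAAG. Over the 21045 promoters of the table, which match 17274 of the genes, 7.91% held CACGTG and 11.7% the ETS-type motif. Among promoters in ranked regions CACGTG was in 9.84% of those above in KO MycHet, 11.0% of those below and 11.4% of those where the genotypes overlapped. The ETS-type motif was in 21.8%, 19.9% and 19.7%. Against KO 2 alone CACGTG was in 10.5% of the promoters above, 11.2% of those below and 11.4% of those between, and the ETS-type motif in 20.5%, 20.9% and 19.2%. The shares of both motifs thus lay close together whichever way a region ranked. These matches describe letters in the window and not binding.

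Ddx39b (gene ID 53817), an RNA helicase of splicing and mRNA export, had percentiles of 40.9 in KO 1, 44.1 in KO 2, 74.4 in KO MycHet 1 and 79.6 in KO MycHet 2. Its scores were 82.46, 480.52, 560.45 and 699.14. The 2 genotypes did not overlap, the limma difference in normal scores was 0.93 with a standard error (SE) of 0.25, and the adjusted p was 0.78. The region at Supt6, a histone chaperone that travels with elongating RNA polymerase II, also covers the start of Sdf2 on the opposite strand, and the 2 promoters overlap. It stood at 22.0 in KO 1, 41.0 in KO 2, 78.2 in KO MycHet 1 and 71.0 in KO MycHet 2, and its KO MYC peak scored 155.16. Both KO MycHet libraries were high, and KO 1 also lay below KO 2.

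Other regions with a wide gap above in KO MycHet were taken by the size of the gap alone. Tuba1a, an alpha-tubulin, had percentiles of 31.2 in KO 1, 34.0 in KO 2, 67.4 in KO MycHet 1 and 65.1 in KO MycHet 2. The region shared by Cd151, a tetraspanin, and Cracr2b stood at 35.7, 29.5, 67.3 and 68.6. In both the 2 libraries of a genotype lay within a few points of each other. Arhgef40, a guanine nucleotide exchange factor, stood at 8.41, 35.6, 68.5 and 68.8. Pitpnc1, a phosphatidylinositol transfer protein, stood at 9.81, 28.1, 61.6 and 60.3, and Wdr63, a dynein chain of cilia, at 1.31, 11.8, 55.5 and 47.5. The region between Slc49a4 and Hspbap1 stood at 0.968, 13.6, 43.8 and 44.1. The peak of KO 1 in the Pitpnc1 region lay outside the 1 kb window of the gene. In these 4 regions KO 1 was well below KO 2, yet KO 2 was also below both KO MycHet libraries.

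Regions below in KO MycHet included those at Pim1 and Jund. Pim1 (gene ID 18712), a serine/threonine kinase that cooperates with MYC in lymphoma, had percentiles of 91.3 in KO 1, 65.1 in KO 2, 37.0 in KO MycHet 1 and 41.1 in KO MycHet 2. Its scores were 235.51, 690.3, 266.11 and 331.76, and its KO MYC peak scored 112.58. The limma difference was -1.15 in normal scores (SE 0.38, adjusted p 0.78). The region at Jund, an AP-1 transcription factor, which also reaches Iqcn, stood at 87.7, 74.6, 23.5 and 42.9, with a KO MYC score of 100.75. Both KO libraries were high there and both KO MycHet libraries low, and the 2 KO MycHet libraries lay apart.

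Arhgap17, a GTPase-activating protein, stood at 76.2 in KO 1, 55.2 in KO 2, 27.5 in KO MycHet 1 and just below that in KO MycHet 2. Ext1, an enzyme that builds heparan sulfate, stood at 70.8, 70.7, 31.1 and 37.5, so the libraries of a genotype were close. Hacd4, of fatty acid elongation, stood at 68.9, 49.6, 23.9 and 24.7, and Adamts6, a secreted protease, at 73.2, 65.1, 37.8 and 40.8. Pex16, of peroxisome assembly, stood at 83.6, 78.2, 45.6 and 53.9, and the region of the thymosin genes Tmsb15l and Tmsb15b1 at 71.6, 64.2, 39.9 and 36.4. The last pair are near-identical copies, so their peak is uncertain. Of the 8 regions named in this direction 5 held a KO MYC peak, and of the 8 named in the other direction 4 did. Over all ranked gene-end regions 3522 of 8734 held one, and so few named regions cannot be set apart from that share.

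**Figure D4:**
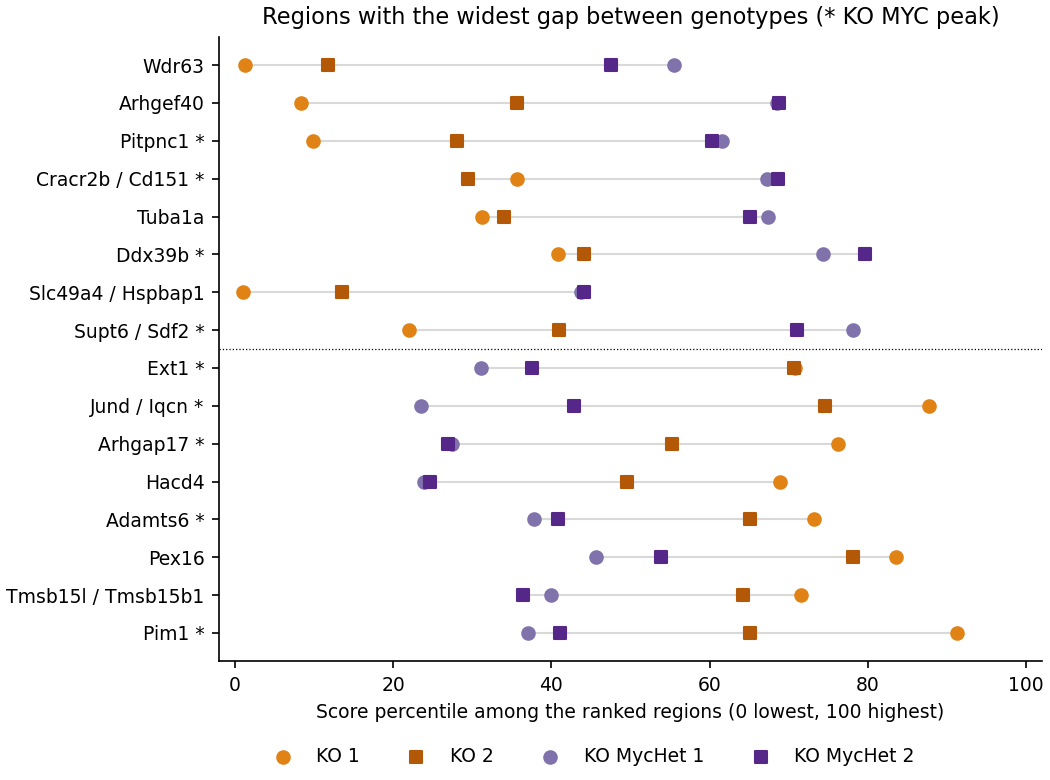
Percentile (horizontal axis, 0 to 100) of each of the 4 libraries in the 16 gene-end regions with the widest gap between genotypes, those above in KO MycHet over the dotted line and those below under it, with an asterisk for a KO MYC peak in the region. Orange points are KO and purple points KO MycHet libraries, and no region passed limma after adjustment.

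At distal regions the widest gaps were of similar size. A region inside Ipmk, an inositol kinase gene (chromosome 10, 71369195 to 71369967), stood at 63.9 in KO 1, 57.6 in KO 2, 16.1 in KO MycHet 1 and 24.5 in KO MycHet 2. The region near Tbc1d19 named above stood at 48.7, 48.1, 7.03 and 8.64, with the 2 libraries of each genotype close together. In the other direction a region 3480 bp from Taf12, a subunit of the basal transcription machinery (chromosome 4, 132268831 to 132270875), stood at 5.76, 12.1, 41.1 and 53.3 and held a KO MYC peak. A region inside Mtss1, an actin regulator gene (chromosome 15, 59080257 to 59082767), stood at 8.47, 11.9, 42.3 and 47.1.

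Genes of the MYC network were read as a group, being MYC, its partner MAX, the MXD and MNT antagonists that compete for MAX, and cofactors. Of 21 ranked genes of 27 listed, 9 lay above in KO MycHet and 1, Pim1, below (42.9% and 4.76%, with 24.9% and 15.4% over all ranked genes), and the median difference was 4.83 points against 1.2 over all genes. None passed limma after adjustment. Max stood at 76.8 in KO 1, 88.8 in KO 2, 95.8 in KO MycHet 1 and 93.5 in KO MycHet 2. Mnt, an antagonist, stood at 72.9, 91.4, 94.4 and 95.8, and Mxd3, another, at 60.6, 56.8, 75.2 and 79.5. Zbtb17, which encodes the MYC-interacting repressor partner MIZ-1, stood at 20.6, 54.0, 70.4 and 70.6, and Wdr5, a chromatin cofactor of MYC, at 22.8, 50.0, 64.5 and 61.4. At Max, Mnt, Zbtb17 and Wdr5 the step from KO 1 to KO 2 exceeded the step from KO 2 to either KO MycHet library. Myc itself stood at 56.6, 41.3, 39.0 and 64.8, and the genotypes overlapped.

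MYC target genes lay near the background, and ribosome biogenesis genes were more often above. Of 43 ranked MYC target genes 12 lay above and 5 below (27.9% and 11.6%, with 24.9% and 15.4% over all ranked genes). Their median difference was 0.62 points against 1.2 over all genes. Eif4e, the cap-binding translation factor, stood at 63.9 in KO 1, 76.8 in KO 2, 87.3 in KO MycHet 1 and 85.9 in KO MycHet 2. Cdk4, a cyclin-dependent kinase of the G1 phase, stood at 72.7, 77.5, 46.0 and 57.5. Of 41 ribosome biogenesis genes 15 lay above and 3 below (36.6% and 7.32%), with a median of 4.02 points. Wdr12, of the PeBoW complex that matures large-subunit rRNA, stood at 65.7, 73.8, 88.7 and 92.1, and Nolc1, a nucleolar phosphoprotein, at 31.1, 56.2, 62.7 and 64.5. Of 65 ribosomal protein genes 13 lay above and 9 below (20.0% and 13.8%). Rps16 stood at 6.16, 32.6, 51.1 and 54.1, and Rps24 at 74.5, 45.4, 38.8 and 37.4. None of these genes passed limma after adjustment.

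mTOR pathway genes other than Mtor, whose lower end had no peak, showed 9 of 24 above and 1 below (37.5% and 4.17%). Over all ranked genes these shares were 24.9% and 15.4%. Tsc1, an inhibitor of the pathway, stood at 50.4 in KO 1, 63.5 in KO 2, 81.3 in KO MycHet 1 and 81.9 in KO MycHet 2. Rptor, the defining subunit of mTOR complex 1, stood at 20.0, 16.9, 40.9 and 36.4. Lamtor2 and Lamtor3, which anchor the complex to lysosomes, stood at 57.9, 71.4, 85.5 and 81.0 and at 47.0, 50.8, 67.8 and 65.9. Eif4ebp1, an mTOR substrate that blocks cap-dependent translation, was the gene below, at 91.0, 92.4, 90.9 and 80.3. Its gap between the genotypes was only 0.12 points. Of 32 autophagy and lysosome genes, which mTOR restrains, 9 lay above and 3 below (28.1% and 9.38%), the former near the share of all ranked genes. Of 2 related genes for autophagosome proteins, Gabarapl1 stood at 17.5, 15.1, 43.5 and 51.1 and Gabarap at 53.7, 49.8, 32.4 and 22.7, so they ran in opposite directions.

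HSC identity and cell cycle genes lay more often below than above. Of 19 ranked HSC identity genes 1 lay above and 7 below (5.26% and 36.8%), with a median difference of -4.87 points. Ikzf2, which encodes the lymphoid and HSC factor Helios, stood at 72.4 in KO 1, 67.8 in KO 2, 44.9 in KO MycHet 1 and 45.3 in KO MycHet 2. Hlf stood at 64.3, 32.4, 22.9 and 27.8, Lyl1, a basic helix-loop-helix factor of HSC, at 60.6, 39.8, 30.2 and 32.1, and Meis1 at 46.8, 41.9, 31.3 and 37.6. Mllt3, of the elongation machinery, was also below, at 57.5, 48.7, 40.7 and 36.5. Fli1 was below by its region alone, since KO MycHet 1 was the sole library with a peak inside the 1 kb window. Counting only genes with a peak of all 4 full lists in that window, 1 of 18 HSC identity genes lay above and 6 below (5.56% and 33.3%), with 24.8% and 15.5% over 9581 such genes. At Hlf and Lyl1 KO 2 lay closer to the KO MycHet libraries than to KO 1. Spi1, which encodes the myeloid and lymphoid factor PU.1, was the gene above, at 7.59, 10.0, 11.8 and 21.3. Kit stood at 47.2, 70.4, 61.8 and 67.8 and overlapped. Of 72 distal regions nearest to HSC identity genes 10 lay above and 14 below (13.9% and 19.4%, with 15.2% and 23.6% over all distal regions). A region inside Etv6, an ETS factor (chromosome 6, 134064678 to 134065781), stood at 59.7, 35.6, 7.97 and 4.40. Against KO 2 alone 21 of the 72 distal regions lay above and 27 below (29.2% and 37.5%, with 32.5% and 41.2% over all distal regions).

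Of 39 cell cycle and replication genes 3 lay above and 8 below (7.69% and 20.5%, with 24.9% and 15.4% over all ranked genes). The median difference was nevertheless 0.08 points. Rrm2, the ribonucleotide reductase subunit that limits DNA synthesis, stood at 75.1 in KO 1, 66.3 in KO 2, 54.8 in KO MycHet 1 and 53.2 in KO MycHet 2. Cdt1, which licenses replication origins, was above, at 36.4, 67.1, 73.8 and 77.1. Of 23 quiescence genes 5 lay above and 1 below (21.7% and 4.35%), with a median of -1.18 points. Both shares were under those of all ranked genes. Rbl2, a pocket protein that represses E2F genes, stood at 41.5, 65.4, 85.8 and 75.7 and was among those above.

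MNK and ERK signalling genes, of interest because MNK phosphorylates eIF4E, showed 6 of 25 above and 4 below (24.0% and 16.0%). Mknk2, which encodes MNK2, stood at 84.8 in KO 1, 89.6 in KO 2, 56.8 in KO MycHet 1 and 76.7 in KO MycHet 2. Dusp6, an ERK phosphatase, stood at 89.9, 83.1, 51.4 and 74.1, and both genes were below. The 25 distal regions nearest to genes of this list showed 3 above and 10 below (12.0% and 40.0%, with 15.2% and 23.6% over all distal regions), and 5 above and 15 below KO 2 alone, with 32.5% and 41.2% over all distal regions. P-TEFb and elongation genes showed 5 of 31 in each direction (16.1%), among them Supt6 above and Hexim1, which holds P-TEFb inactive, below at 85.0, 81.2, 62.7 and 79.2. Oxidative phosphorylation genes showed 11 of 47 above and 7 below (23.4% and 14.9%), glycolysis genes 5 and 4 of 19 (26.3% and 21.1%), and interferon response genes 4 and 3 of 20 (20.0% and 15.0%), beside 24.9% and 15.4% of all ranked genes. The elongation genes were thus less often above than ranked genes as a whole. Their median difference was nevertheless 4.1 points, against 1.2 over all genes, so the 2 measures do not give 1 direction. The oxidative phosphorylation shares were near those of all ranked genes.

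**Figure D5:**
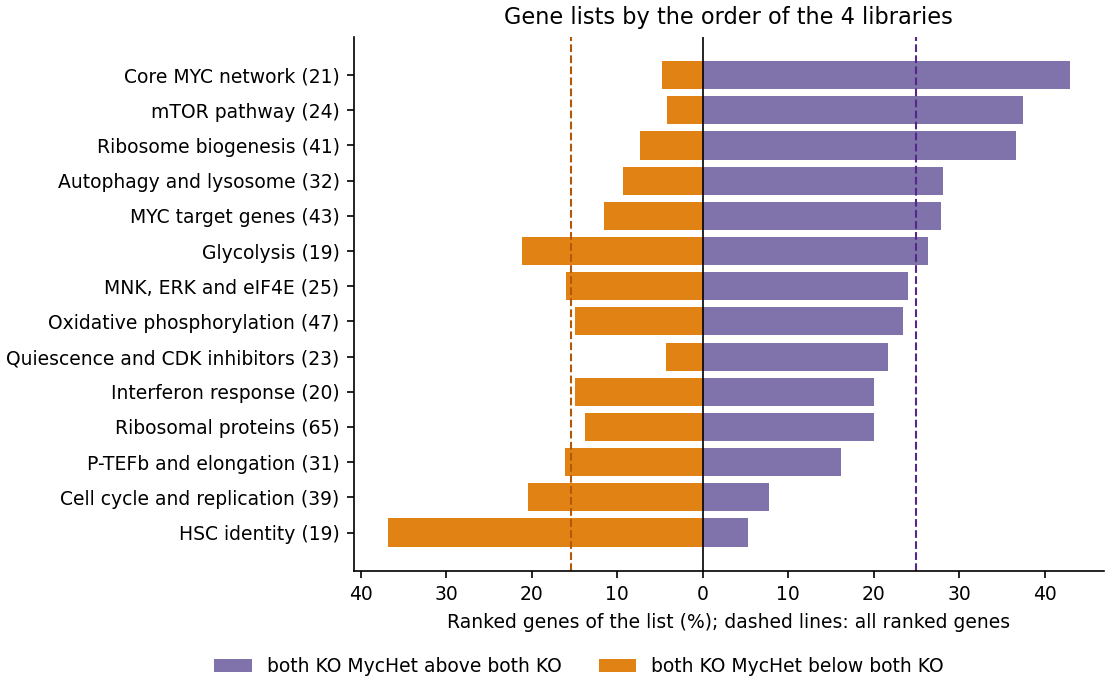
Share of the ranked genes of each list (number in brackets) with both KO MycHet libraries above both KO libraries (purple, to the right) or below both (orange, to the left), in percent, with dashed lines at 24.9% and 15.4% for all ranked genes. The MYC network, mTOR pathway, ribosome biogenesis, autophagy, MYC target and glycolysis lists reach past the right line. HSC identity, glycolysis, cell cycle, P-TEFb and MNK lists reach past the left line, the last 2 by less than 1 point.

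Against KO 2 alone the order of the lists changed, and no test was made. Both KO MycHet libraries lay above KO 2 in 11 of 21 MYC network genes (52.4%) and below it in 2 (9.52%), with 42.8% and 29.9% over all ranked genes. For mTOR pathway genes the counts were 12 above and 5 below of 24 (50.0% and 20.8%), and for ribosome biogenesis genes 20 and 8 of 41 (48.8% and 19.5%). Glycolysis genes, with 13 above and 5 below of 19 (68.4% and 26.3%), and oxidative phosphorylation genes, with 25 and 8 of 47 (53.2% and 17.0%), had higher shares above than the MYC network. Ribosomal protein genes had 47.7% above and 21.5% below, interferon genes 45.0% and 30.0%, MYC targets 44.2% and 18.6%, MNK and ERK genes 44.0% and 20.0%, autophagy genes 43.8% and 15.6%, quiescence genes 43.5% and 13.0%, and elongation genes 38.7% and 25.8%. For HSC identity genes the counts were 6 and 9 of 19 (31.6% and 47.4%), and for cell cycle genes 12 and 18 of 39 (30.8% and 46.2%). Over HSC identity genes the median percentiles were 57.5 in KO 1, 46.4 in KO 2, 40.7 in KO MycHet 1 and 41.8 in KO MycHet 2, so KO 1 lay farther from KO 2 than KO 2 from the KO MycHet libraries.

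Markers of other blood lineages had few ranked regions. Of 9 erythroid markers 1 lay above and 2 below, of 6 myeloid markers 0 and 1, of 3 B cell markers 0 and 2, of 5 T and NK markers 0 and 0, of 6 megakaryocyte markers 1 and 1, and of 3 stromal and endothelial markers 0 and 0. Over all ranked genes 24.9% lay above and 15.4% below. With so few genes per list, these counts cannot be set apart from those shares. The 2 B cell genes below were Igll1, part of the surrogate light chain of pre-B cells, at 48.7 in KO 1, 50.8 in KO 2, 25.5 in KO MycHet 1 and 26.6 in KO MycHet 2, and Bank1, a B cell scaffold protein, at 55.5, 54.7, 38.1 and 32.5. At each of them the 2 libraries of a genotype lay close together. Igll1 is also among the 214 genes open in KO MycHet only, because the KO peaks of the same region lay outside the 1 kb window of the gene, so the 2 measures run in opposite directions there. Whether fewer cells of a lineage or less open chromatin per cell lie behind such a value cannot be told apart in bulk lists.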

How the data were processed

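ATAC-seq peak lists of 2 KO and 2 KO MycHet libraries were compared, with lists of WT ATAC-seq and of KO MYC, H3K27ac and H3K4me3 ChIP-seq as annotation. The 8 RNA-seq samples were not analysed here. Each list is of 1 library, not of pooled samples, and each peak carries the score that the authors deposited, at least 50 in every list. Per the submitters' processing notes CASAVA, TopHat and Cufflinks are named with no role, next to build mm10. Not given in the sources used here are the aligner, the settings of the peak caller, any input control and how transposase reads were handled.

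On chromosomes 1 to 19 and X, the 19174 highest-scoring peaks of each library were merged wherever 1 bp or more was shared. Gene ends were taken from the RefSeq table of GRCm38.p6, the assembly of mm10, with 21631 protein-coding genes and no strand, so windows of 1 kb lay around both ends. Ranks in the 17149 regions with a peak in all 4 full lists were turned into normal scores and tested with limma 3.58.1 in R 4.3.3 (genotype only, Benjamini-Hochberg adjustment), which was tested on simulated ranks. Genotype differences of a single value over the 4 libraries used a two-sided exact permutation test, which cannot go below 0.33. Overlaps were checked with bedtools 2.31.1. The other steps used Python 3.11.15.

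Genes were named by rule. It took Mtor and Myc, up to 10 genes and 8 distal regions open in each genotype only, the 10 ranked genes with the widest gap between genotypes each way and up to 6 with a KO MYC peak, and up to 2 each way per list. Predicted genes, RIKEN clones and olfactory receptors were not named, some genes that the rule names are not reported here, and other genes in the text were chosen after their values were seen. The members, the 20 lists (682 of 684 genes matched) and the alternatives were chosen with earlier results of these data known. Alternatives were full lists, 10000 peaks, an overlap of 100 bp, other windows, the higher-scoring KO MYC peaks and leaving out each library. Windows of 500 bp, counts against KO 2 alone, region classes without KO 1 and counts over genes with their own peaks were added after seeing the data.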

Additional observations from a re-analysis of the deposited data

How the results depend on the processing

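Leaving out each library in turn gave 833 to 4147 KO-only and 1345 to 4089 KO MycHet-only regions, the highest counts without KO 2, and 135 to 394 KO-only and 318 to 1324 KO MycHet-only genes. Fewer libraries then have to hold or lack a region. The regions shared by all libraries left numbered 12900 to 15845. The limma calls numbered 0 except without KO 2, where 2609 regions were higher and 2458 lower. Without a library the excess of the rank difference at KO MYC peaks ran from 0.13 to 1.69 points at gene ends and from 1.86 to 6.54 distally, lowest without KO 1 in both places. The share with a KO MYC peak ran from 7.20% to 13.7% for KO-only, 17.7% to 24.9% for KO MycHet-only and 37.8% to 41.1% for shared regions. The per-library differences ran from 1.43 to 3.12 points for gene ends and 1.89 to 4.10 for KO MYC peaks. Without KO 1 and with 47214 peaks there were 4934, 3765 and 35503 regions and 245 KO-only genes.

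Full lists gave 276 KO-only regions, 9 KO-only and 89 KO MycHet-only genes, and KO MYC shares of 5.07%, 6.98% and 34.5%. They reversed the per-library differences of the averages to -7.46 points for gene ends and -4.27 for KO MYC peaks. KO 2 by itself still lay below both KO MycHet libraries in both measures. With 10000 peaks the region counts were 264, 427 and 6796, as fewer peaks enter, and the gene-end difference was 3.62 points. Absence from the full lists left 6 KO-only and 0 KO MycHet-only regions, and 0 and 27 genes. Over regions in all 4 equal lists the gene-end rank excess was 2.22 points. The higher-scoring KO MYC peaks alone gave shares of 4.07%, 13.3% and 25.9% and a per-library difference of 1.5 points. Windows of 500 bp, added after seeing the data, gave 36.6% for shared regions and per-library differences of 1.13 points at gene ends and 0.94 at KO MYC peaks. The cause of these shifts was not tested. The other alternatives gave values within 1.5 times the reported count, within the interval or within 1 SD.

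No paired analysis was possible because the number 2 is the only replicate number that the titles of both genotypes share. Depth is unknown, and 2 libraries per genotype, 1 of which stands apart, limit every comparison.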
